A study of Solanum lycopersicum with 36 samples.

Results

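The genes described here were higher in every wild type (WT) tomato root library than in any root library of the histone methyltransferase mutants *sdg33* and *sdg34*. The rule set no level, so some of them were well expressed in the mutant roots. For each feature of the root table, the gap was the lowest log2(value + 1) among the 6 WT root libraries minus the highest among the 12 *sdg33* and *sdg34* root libraries, and the 60 features with the widest gap of 35872 listed were taken, so the genes were chosen by their root values in mutants and WT. The values, called normalized values below, are rounded gene counts brought to 1 common distribution by full-quantile normalization. *sdg33* and *sdg34* are CRISPR lines of the cultivar Castlemart II, 1 line per gene in these libraries, and WT is Castlemart II itself. All plants were grown in hydroponic medium, kept for 2 days without N, and harvested 5 h after transfer to medium with N (+N, 1.2 mM KNO3, 0.8 mM Ca(NO3)2 and 0.2 mM NH4H2PO4) or without it (-N, in which 0.6 mM K2SO4, 0.8 mM CaSO4 and 0.2 mM KH2PO4 took the place of those salts). Sulfate from the main salts was therefore 0.2 mM at +N and 1.6 mM at -N, so that N supply and sulfate supply cannot be told apart in any comparison of +N with -N. Each of the 12 groups of genotype, N supply and organ had 3 libraries, each from a pool of 3 plants.

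SDG33 and SDG34 are SET domain proteins of a family that places methyl groups on histone lysines. Depending on the lysine, such marks go with active or with repressed genes, and the study calls those linked to SDG33 and SDG34 permissive. Several of the described genes in the set belong to sulfate assimilation. In that pathway sulfate is taken up by transporters and activated to adenosine 5'-phosphosulfate (APS), and APS reductase reduces APS to sulfite on the way to cysteine. LSU (response to low sulfur) genes are known in Arabidopsis for a strong rise of their transcripts when sulfur is short. In Arabidopsis, EIN3-like 3 is also known as SLIM1, a regulator of the response to sulfur limitation.

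Every library held the same sorted values, with a total of 19667069, so the number of reads per library is unknown and precision was taken from the spread between replicates. Pearson's r between replicate libraries, across genes, was 0.977 to 0.990 in roots and 0.944 to 0.983 in shoots. As a check of the organ labels, 8 of 9 chlorophyll-binding and photosystem genes were higher in every shoot library than in every root library, and the sum of the 9 was 24939 to 177409 in shoots and 197 to 626 in roots. The exception was Solyc01g087040.2. The SDG33 transcript (Solyc04g057880.3) had a log2 fold change against WT of -0.30 (adjusted p = 0.00174, SE 0.07) in *sdg33* roots and of -1.0 in *sdg33* shoots. The SDG34 transcript (Solyc06g059960.3) had -0.44 (adjusted p = 0.0522, SE 0.18) in *sdg34* roots, which did not pass the threshold, and -0.56 in *sdg34* shoots. An edited gene can still be transcribed, so these levels do not show whether the edit was present.

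The gap that chose the genes ran from 0.72 to 3.68, with a median of 0.98, and was at least 2 for 7 genes and at least 1 for 29. It is a description of the choice and not a test. Of all listed features, 980 (2.73%) had every WT root library above every mutant root library and 976 (2.72%) had the reverse. The last 3 genes taken were Solyc06g024200.1 with a gap of 0.74 and Solyc06g050130.3 and Solyc01g109610.3 with 0.72 each, and the first 3 left out were Solyc11g013030.2, Solyc07g008103.1 and Solyc03g093620.1 with 0.71 each. The filter on low values, 10 or more in 3 or more libraries, was passed by 59 of the 60 in roots, 6 of them only with WT libraries counted in the *sdg33* fit and 8 in the *sdg34* fit. The exception, Solyc04g077555.1, had at most 2 in the mutant roots and 6 to 8 in the WT roots. Over the 59, the log2 fold change against WT ran from -5.75 to -1.05 in *sdg33* roots (median -2.35) and from -6.14 to -1.02 in *sdg34* roots (median -2.28). In all genes tested, 28.7% were lower in *sdg33* roots and 27.7% in *sdg34* roots at an adjusted p under 0.05, while 23.4% were lower in both, 3.28% by a log2 fold change of -1 or beyond and 0.355% by -2 or beyond. In bulk tissue, fewer cells of a type and less RNA per cell cannot be told apart, and both mutants were set against the same 6 WT libraries.

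**Figure D1:**
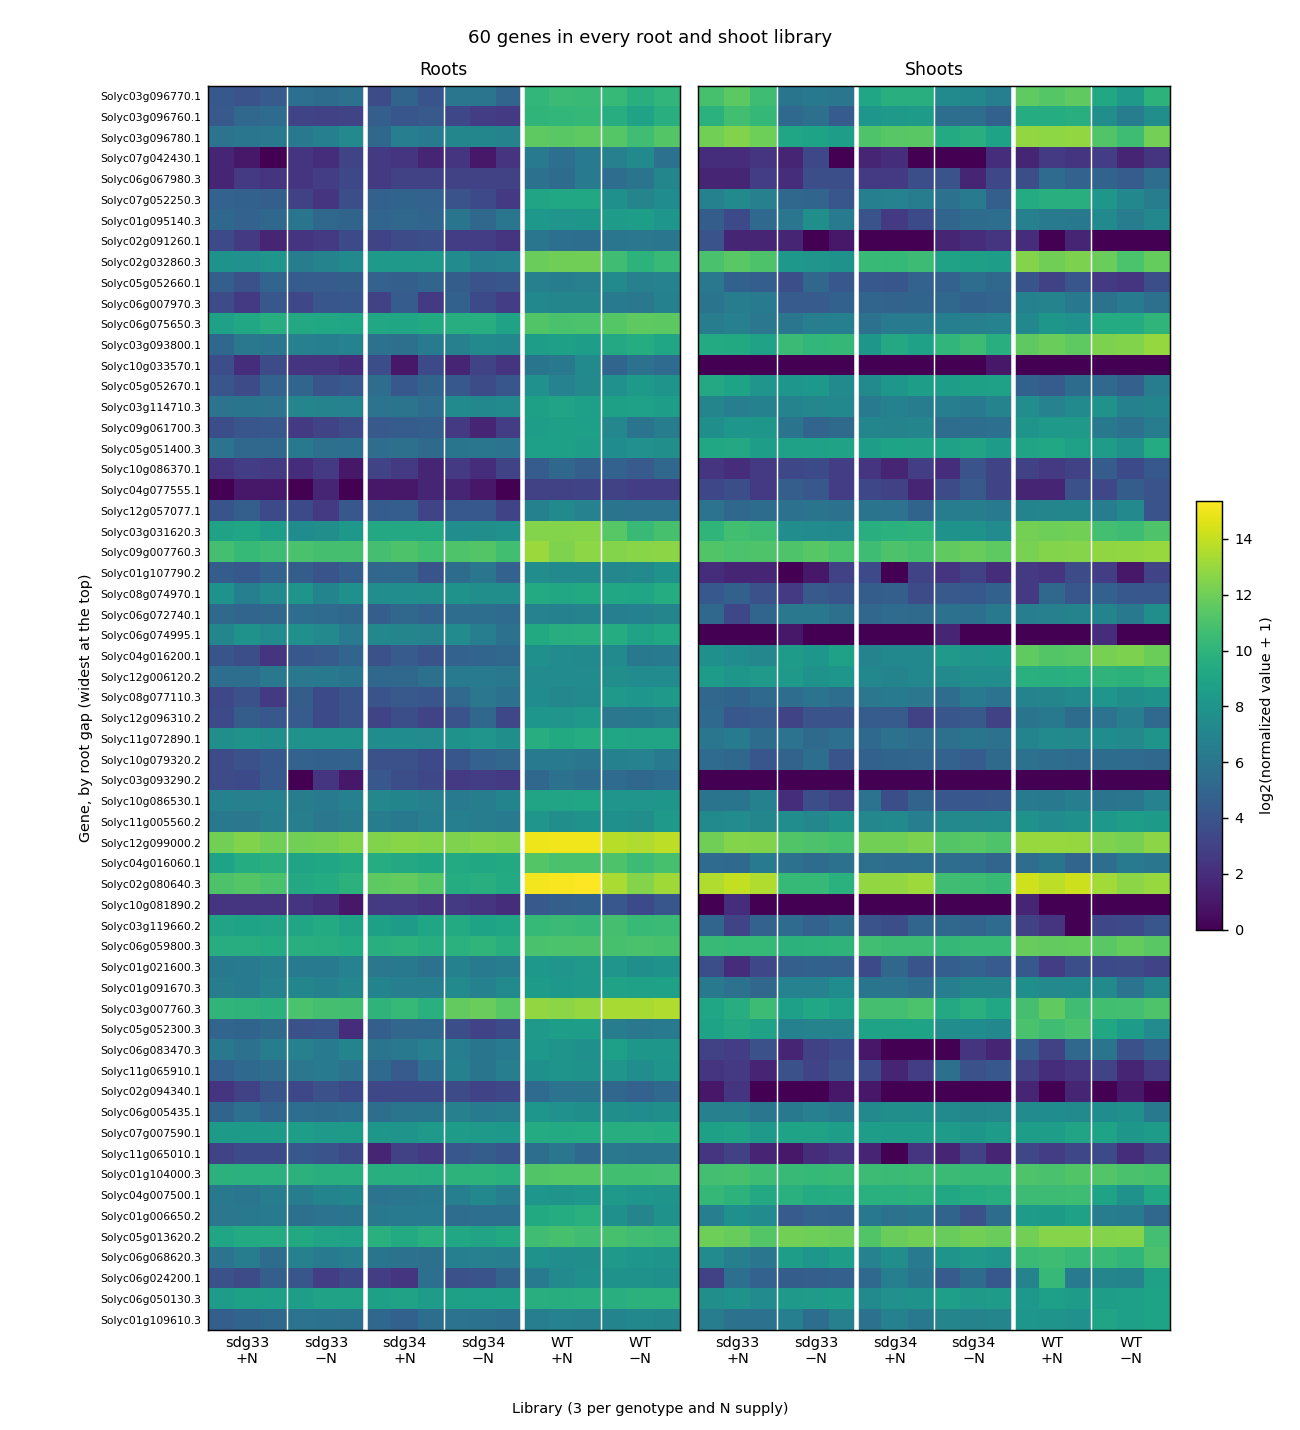
Normalized values of the 60 genes, as log2(value + 1) on the colour scale, in each root library (left panel) and shoot library (right panel). Rows are genes by root gap, columns are the 3 libraries of each genotype and N supply, and thick white lines part *sdg33*, *sdg34* and WT. The WT columns are brighter in every row of the root panel, as the rule requires, while in the shoot panel some rows are dark in all genotypes and a few are brighter in the mutants.

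The run of adjacent genes on chromosome 3 had the 3 widest gaps of all. Solyc03g096770.1, described as a response to low sulfur protein, had 18, 14 and 20 in +N *sdg33* roots, 11, 30 and 15 in +N *sdg34* roots and 1140, 1408 and 1344 in +N WT roots. At -N it had 48, 42 and 52 in *sdg33* roots, 64, 65 and 32 in *sdg34* roots and 1242, 842 and 1114 in WT roots. The mutant libraries thus lay at 65 or lower and the WT libraries at 842 or higher. Its neighbour Solyc03g096760.1, for which no description was at hand, had 5 to 40 (median 12.5) in the mutant roots and 461 to 1202 (median 957) in the WT roots. Solyc03g096780.1, also without a description, had 34 to 148 in the mutant roots and 1602 to 3074 in the WT roots. The log2 fold changes of the 3 genes in roots were -5.30, -5.75 and -4.95 in *sdg33* and -5.25, -6.14 and -4.81 in *sdg34*. Genes with similar sequence can share reads, so values within such a run, and among the APS reductase genes, could be split between copies in the counting.

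The 3 genes described as APS reductases were all in the set. Solyc02g032860.3 had 236, 216 and 254 in +N *sdg33* roots, 322, 312 and 310 in +N *sdg34* roots and 3755, 4174 and 4244 in +N WT roots. At -N it had 92, 118 and 166 in *sdg33* roots, 168, 100 and 112 in *sdg34* roots and 1648, 1001 and 1387 in WT roots. Every genotype was higher at +N, and no mutant library reached the lowest WT library. Solyc03g031620.3 had 176 to 627 in the mutant roots and 1384 to 6014 in the WT roots. Solyc02g080640.3 had 632 to 3220 in the mutant roots and 5972 to 42541 in the WT roots. Their log2 fold changes in roots lay between -3.81 and -3.43 in *sdg33* and between -3.62 and -3.27 in *sdg34*.

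The ethylene-insensitive 3-like 3 gene Solyc01g006650.2, named here after its values were seen, had 50 to 76 in *sdg33* roots, 44 to 76 in *sdg34* roots and 129 to 851 in WT roots. The keyword list of transcription factors matched 2 genes of the set. The nuclear factor Y subunit B gene Solyc12g006120.2 had 46 to 73 in *sdg33* roots, 34 to 83 in *sdg34* roots and 167 to 192 in WT roots, and the NAC domain gene Solyc08g077110.3 had 5 to 22 in *sdg33* roots, 15 to 68 in *sdg34* roots and 136 to 306 in WT roots. The late embryogenesis abundant protein genes Solyc06g067980.3 and Solyc01g095140.3, of a family known for protecting cells that dry out, had 2 to 9 and 27 to 64 in the mutant roots and 41 to 130 and 262 to 370 in the WT roots. The erythronate-4-phosphate dehydrogenase family gene Solyc01g109610.3, the last gene by rank, had 24 to 58 in the mutant roots and 96 to 143 in the WT roots. Solyc07g042430.1, Solyc07g052250.3 and Solyc02g091260.1, the remaining genes of the 10 widest gaps outside the runs, had at most 8, 30 and 12 in the mutant roots and at least 48, 129 and 46 in the WT roots. None of these 3 had a description with a known role.

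Descriptions were at hand for 19 of the 60 genes, because they came from the study's own lists of differentially expressed genes, so a described gene is one that the study had listed. By keywords, 4 of the 19 were sulfur genes, beside 0.846% of all 2009 described genes, and 4 were oxidoreductases (the APS reductases among them), beside 7.72%. Transcription factors were 2 of the 19, beside 10.5%, and transporters, kinases and defence genes were 0 each, beside 3.83%, 6.97% and 2.94%. The name of the EIN3-like 3 gene matched no keyword list, so that gene is in none of these counts. With 19 genes such counts say little, and they were not tested. A tonoplast intrinsic protein, a family of channels in the vacuole membrane, was described under that name alone.

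**Figure D2:**
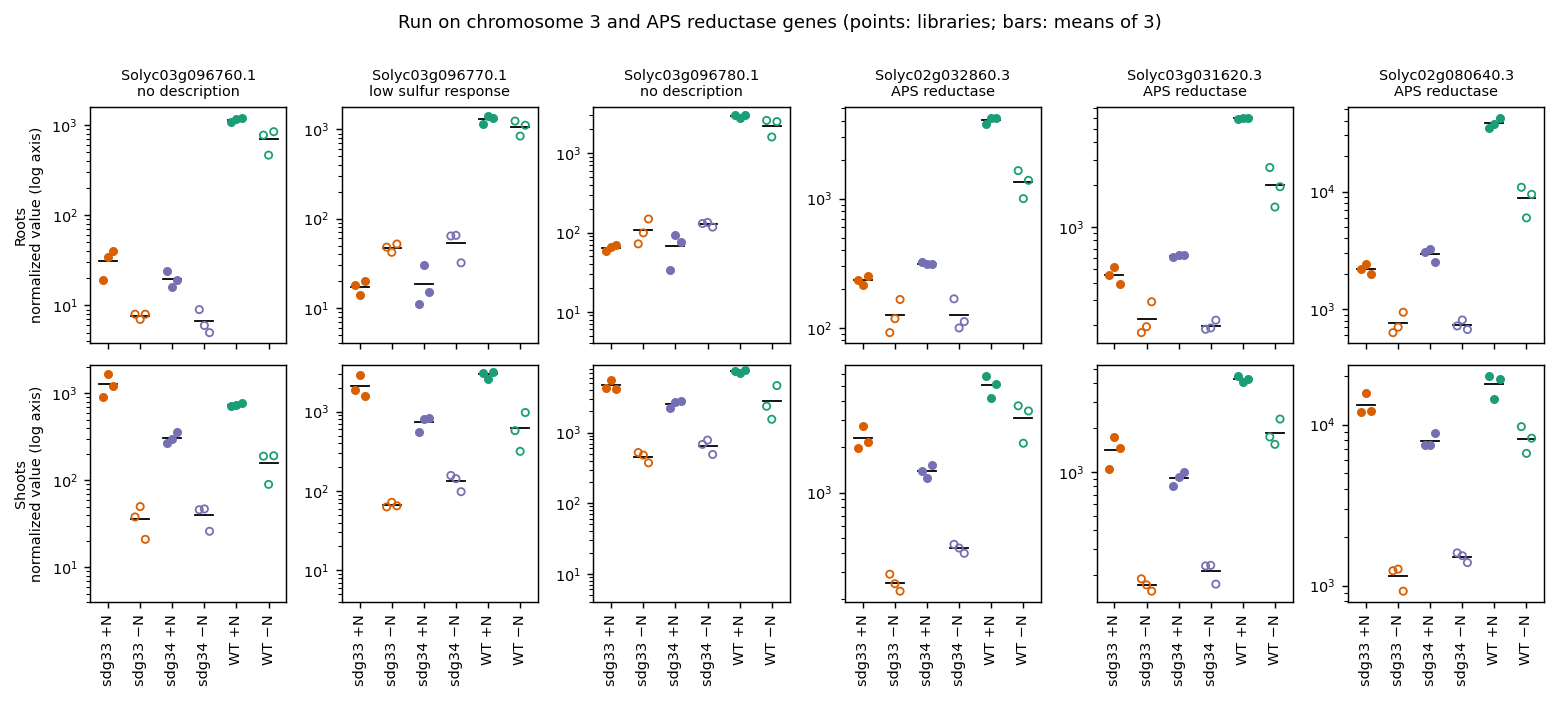
Normalized values, on log axes, of the 3 adjacent genes of chromosome 3 and the 3 APS reductase genes in roots (top) and shoots (bottom). Points are libraries, filled at +N and open at -N, and bars are means of 3 libraries. In roots no mutant point reaches a WT point, whereas in shoots at +N the *sdg33* points of Solyc03g096760.1 lie at 915 to 1694 and those of WT at 722 to 782.

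Gene IDs of tomato carry the chromosome number and run along the chromosome, which gave positions by listed gene. The 60 genes lay on all 12 chromosomes, with 11 (18.3%) on chromosome 6, which holds 8.23% of the listed genes placed on chromosomes, 9 (15.0%) on chromosome 3, which holds 9.75%, and 2 to 7 on each of the others. These shares are a description, with no test. Only 5 of the 60 lay in runs, namely the 3 on chromosome 3 and Solyc05g052660.1 with Solyc05g052670.1 on chromosome 5, and the same 5 were found when a run meant adjacent genes, genes within 5 listed genes or genes within 10. The member nearest to SDG34 was Solyc06g059800.3, 13 listed genes away, and the member nearest to SDG33 was Solyc04g077555.1, 606 listed genes away.

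Neighbours were taken by position alone, as the 5 listed genes on each side of a member, and were tested in roots with all other genes. Of 570 such neighbours, 360 were tested in both mutants, and 103 of these (28.6%) were lower and 59 (16.4%) were higher in both, beside 23.2% and 20.7% of all other genes tested. Lower by a log2 fold change of -1 or beyond in both were 21 of the 360 (5.83%), beside 3.0% of all other genes. Among directly adjacent genes, 8 of 83 (9.64%) were lower to that degree. Higher by a log2 fold change of 1 or beyond in both were 7 of the 360 and 2 of the 83, beside 769 of the 20219 other genes tested. These shares were not tested against each other. The median neighbour changed little, with a mean log2 fold change of -0.08 over both mutants within 5 genes and -0.10 for adjacent genes.

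The flanks of the 2 runs differed. Beyond the chromosome 3 run, Solyc03g096790.3 had log2 fold changes of 0.05 in *sdg33* and 0.04 in *sdg34*, adjusted p = 0.494 and 0.588 in limma, directly beside Solyc03g096780.1, whose log2 fold changes were -4.95 and -4.81. On the other side the nearest tested gene, Solyc03g096740.3, had -0.50 (adjusted p = 0.0128, SE 0.15) in *sdg33* and -0.33 (adjusted p = 0.0745, SE 0.15) in *sdg34*. On chromosome 5, the genes on both sides of the pair were lower as well. Solyc05g052650.2, without a description, had 52, 16 and 49 in +N *sdg33* roots, 45, 37 and 35 in +N *sdg34* roots and 165, 70 and 103 in +N WT roots, with log2 fold changes of -1.69 (adjusted p = 0.000184, SE 0.28) in *sdg33* and -1.73 (adjusted p = 3.45e-06, SE 0.18) in *sdg34*. All its mutant libraries lay below all its WT libraries. Solyc05g052680.1, described as an HXXXD-type acyltransferase like its neighbour Solyc05g052670.1, had -1.54 (adjusted p = 0.000109, SE 0.24) in *sdg33* and -1.32 (adjusted p = 0.000144, SE 0.21) in *sdg34*.

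Other adjacent genes moved with a member, and some moved against one. Solyc06g074990.2, described as a putative high affinity nitrate transporter 2, lies next to Solyc06g074995.1 and had 5136 to 19084 in *sdg33* roots, 4464 to 19773 in *sdg34* roots and 24130 to 49492 in WT roots, with log2 fold changes of -1.75 (adjusted p = 5.22e-06, SE 0.19) and -1.82 (adjusted p = 5.97e-06, SE 0.20). Its mutant and WT root libraries did not overlap. Solyc01g006640.1, next to the EIN3-like 3 gene, had 0 to 8 in both mutants and 2 to 52 in WT, and passed the filter only through its WT libraries, so its log2 fold changes of -2.89 in *sdg33* and -2.75 in *sdg34* are given as values. In contrast, Solyc03g031630.3, a calcium-binding EF-hand gene directly beside the APS reductase gene Solyc03g031620.3, was higher. At +N it had 466 to 624 in *sdg33* roots, 575 to 860 in *sdg34* roots and 34 to 57 in WT roots. At -N it had 81, 80 and 80 in *sdg33* roots, 12, 2 and 3 in *sdg34* roots and 3, 0 and 0 in WT roots, so *sdg34* and WT overlapped there. As means over both N supplies, its log2 fold changes were 4.64 in *sdg33* and 2.89 in *sdg34*. The glycosyltransferase gene Solyc04g016200.1 had a described glycosyltransferase neighbour, Solyc04g016190.1. This neighbour had 18 to 43 in *sdg33* roots, 9 to 42 in *sdg34* roots and 1 to 14 in WT roots, so *sdg34* and WT overlapped. It passed the filter only through its mutant libraries, so its log2 fold changes of 2.06 in *sdg33* and 1.67 in *sdg34* are given as values. Whether the counting used strand is not given in the sources used here, so reads of overlapping gene models could not be told apart.

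**Figure D3:**
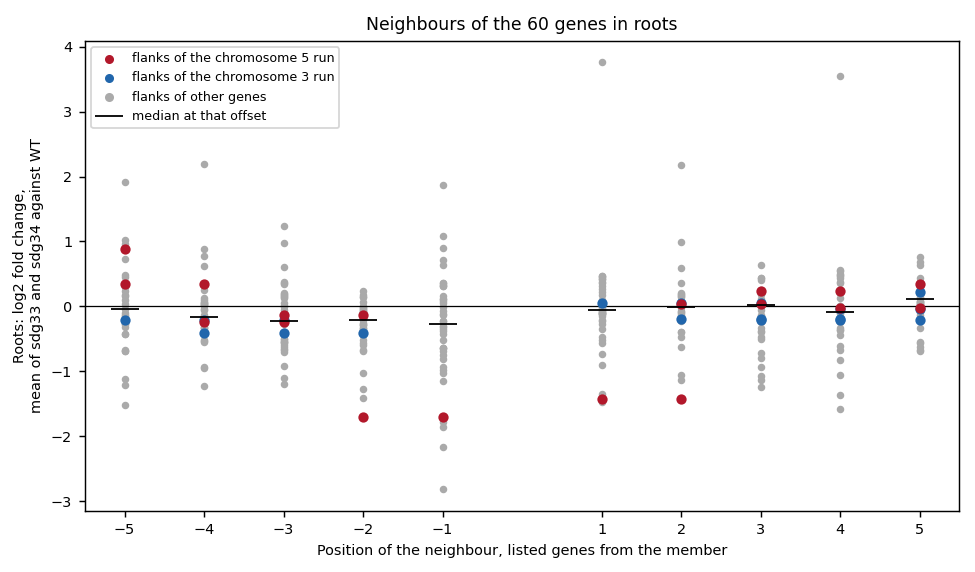
Root log2 fold change, as the mean of *sdg33* and *sdg34* against WT, of the tested neighbours of the 60 genes, by their position in listed genes from the member, with the median at each position as a black bar. A neighbour of 2 members is drawn at both positions. The flanks of the chromosome 5 run (red) hold 2 genes below -1, while the flanks of the chromosome 3 run (blue) lie near 0.

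The comparison of +N with -N in WT roots did not enter the rule, but the WT root values it rests on did. The gap started from the lowest WT root library over both N supplies. At a given mean WT level, a response to N in either direction thus narrowed the gap. The counts, shares and adjusted p-values of the WT root N response are therefore a description of the chosen genes. Higher at +N were 15 of the 59 genes tested and lower were 4, beside 21.8% and 22.1% of all genes tested, so the shares of the set were 25.4% and 6.78%. The largest responses were in Solyc05g052300.3, Solyc02g080640.3 and Solyc09g061700.3. Solyc05g052300.3, without a description, had 320, 394 and 391 in +N WT roots and 88, 70 and 80 in -N WT roots, a log2 fold change of 2.20 (adjusted p = 0.000115, SE 0.37). Solyc09g061700.3, also without one, had 370, 435 and 407 in +N WT roots and 136, 59 and 90 in -N WT roots, a log2 fold change of 2.15 (adjusted p = 6.55e-05, SE 0.34). The +N and -N libraries of both genes were apart.

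The APS reductase genes were among the responders. Solyc02g080640.3 had 34712, 37682 and 42541 in +N WT roots and 10866, 5972 and 9464 in -N WT roots, a log2 fold change of 2.17 (adjusted p = 5.68e-08, SE 0.18). Solyc02g032860.3 had 1.62 (adjusted p = 6.06e-06, SE 0.20) and Solyc03g031620.3 had 1.63 (adjusted p = 2.50e-06, SE 0.19). The EIN3-like 3 gene had 660, 738 and 851 in +N WT roots and 212, 129 and 228 in -N WT roots, a log2 fold change of 2.01 (adjusted p = 1.02e-07, SE 0.18). In each of these genes every +N library was above every -N library, and the -N medium held more sulfate, as given above. Of the chromosome 3 run, Solyc03g096760.1 passed the threshold with 0.77 (adjusted p = 0.0298, SE 0.27), but not without -N replicate 2 or without any 1 of the +N replicates of WT, and Solyc03g096770.1 had 0.30 (adjusted p = 0.451) and Solyc03g096780.1 had 0.43 (adjusted p = 0.254).

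Lower at +N in WT roots were the NAC domain gene Solyc08g077110.3 with -0.90 (adjusted p = 0.0231, SE 0.30), the glycine-rich protein gene Solyc03g093800.1 with -0.62 (adjusted p = 0.0384, SE 0.23), Solyc03g007760.3 with -0.60 (adjusted p = 0.000852, SE 0.13) and Solyc01g091670.3 with -0.48. Solyc03g007760.3 had 7650, 6568 and 7832 in +N WT roots and 10765, 10710 and 11940 in -N WT roots. This group was the least stable, since it fell to 1 gene without -N replicate 1, +N replicate 2 or +N replicate 3 of WT, and to 2 genes without -N replicate 3. For comparison, the nitrate transporter gene NRT1.1 (Solyc08g078950.3), no member, had 0.70 in WT roots and was higher in the mutant roots, by 0.78 in *sdg33* and 0.86 in *sdg34*.

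The N responses of the mutants themselves were read in the same fit. In *sdg33* roots 8 were higher and 12 lower at +N, beside 20.7% and 23.2% of all genes tested, and in *sdg34* roots 11 were higher and 21 lower, beside 25.7% and 27.1%. Of the 15 genes higher at +N in WT, 7 were higher in both mutants, beside 58.4% of all genes higher at +N in WT roots. They included the 3 APS reductase genes, whose log2 fold changes, for Solyc02g032860.3, Solyc02g080640.3 and Solyc03g031620.3 in turn, were 0.94, 1.55 and 1.07 in *sdg33* and 1.34, 1.99 and 1.65 in *sdg34*. The difference between the N responses was tested as an interaction, added after the values had been seen. The response was lower than in WT for 9 genes in *sdg33* roots, beside 4.77% of all genes tested, and for 18 genes in *sdg34* roots, beside 9.67%. It was higher for 1 gene in each, beside 3.6% and 7.46%. The rule used these same root libraries and took genes with mutant values below WT. The log2(value + 1) scale understates changes where those values were low. These counts, and the root interactions of single genes given below, are therefore a description.

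The EIN3-like 3 gene was one of those with a smaller response in the mutants. It had 68, 72 and 76 in +N *sdg33* roots and 50, 58 and 62 in -N *sdg33* roots, and 72, 76 and 76 in +N *sdg34* roots and 44, 48 and 48 in -N *sdg34* roots. Its N response was 0.34 (adjusted p = 0.124) in *sdg33* and 0.67 (adjusted p = 0.00377) in *sdg34*, lower than in WT by a log2 difference of -1.67 (adjusted p = 0.00052, SE 0.25) and -1.35 (adjusted p = 0.00114, SE 0.25). Solyc12g099000.2, without a description, had 4322 to 5559 in *sdg33* roots and 5460 to 6454 in *sdg34* roots over both N supplies, and 31926, 34121 and 34121 in +N and 13592, 12094 and 14598 in -N WT roots. Its N response of 1.32 in WT was -0.04 in *sdg33* and 0.06 in *sdg34*, with differences of -1.36 (adjusted p = 3.06e-05, SE 0.15) and -1.26 (adjusted p = 1.96e-05, SE 0.15). Both genes kept these calls in every alternative tried, each library left out in turn included, which does not free them of the choice by root values.

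Other genes with an interaction had no called N response in WT roots. Solyc03g114710.3, without a description, had 58, 60 and 56 in +N and 125, 118 and 110 in -N *sdg33* roots, 58, 60 and 44 in +N and 156, 144 and 159 in -N *sdg34* roots, and 432, 514 and 407 in +N and 422, 444 and 392 in -N WT roots. Its +N and -N libraries overlapped in WT and were apart in both mutants, where +N was lower, with interactions of -1.11 (adjusted p = 0.00121, SE 0.18) in *sdg33* and -1.60 (adjusted p = 1.60e-05, SE 0.18) in *sdg34*. The low sulfur gene Solyc03g096770.1, whose root values are given above, was lower at +N by -1.41 in *sdg33* and -1.52 in *sdg34*, with interactions of -1.70 (adjusted p = 0.0178, SE 0.42) and -1.82 (adjusted p = 0.00634, SE 0.42). Its neighbour Solyc03g096760.1 was higher at +N by 1.82 in *sdg33* and 1.45 in *sdg34*, so adjacent genes moved in opposite directions with N there. The mutant values behind these responses were at most 65 in Solyc03g096770.1 and at most 40 in Solyc03g096760.1. The glycosyltransferase gene Solyc04g016200.1 had interactions of -2.05 (adjusted p = 0.0228) in *sdg33* and -1.85 (adjusted p = 0.0234) in *sdg34*, which were lost without WT -N replicate 2 or 3 or WT +N replicate 1, and without *sdg33* -N replicate 3 or *sdg34* +N replicate 1 in that mutant.

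**Figure D4:**
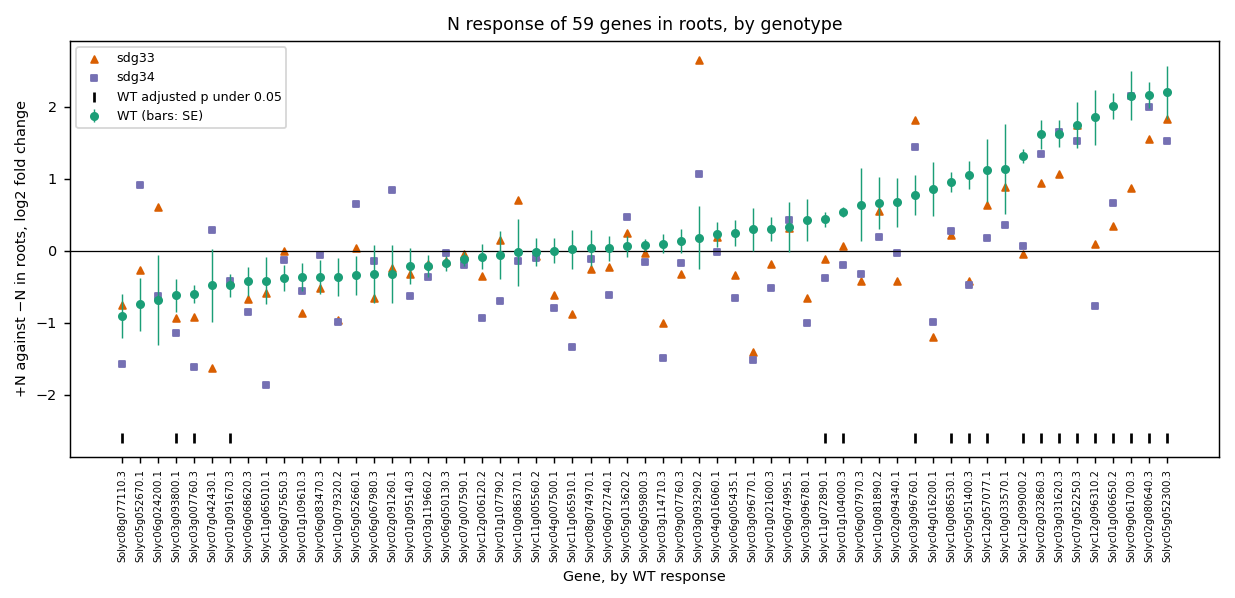
Log2 fold change of +N against -N in roots for the 59 tested genes, ordered by the response in WT, in *sdg33* (triangles), *sdg34* (squares) and WT (circles, bars are SE). Ticks along the bottom mark genes past an adjusted p of 0.05 in WT. At the right end, where WT reaches 2.20, several mutant points lie well below the WT circle.

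Few of the genes passed the test between the mutants in roots. Of 55 tested, 2 (3.64%) were higher in *sdg34* than in *sdg33*, beside 0.457% of all genes tested. They were the NAC gene Solyc08g077110.3 by 1.31 (adjusted p = 0.0349, SE 0.26) and Solyc06g005435.1 by 0.78. None was lower in limma's test at the adjusted threshold, where 0.521% of all genes were, and at an unadjusted p under 0.05 there were 7 higher and 0 lower. The call for 2 genes was not stable, with 0 higher without *sdg33* -N replicate 2, *sdg34* -N replicate 2, *sdg33* +N replicate 1 or 3, or *sdg34* +N replicate 1 or 2, and 1 higher without any 1 of the other -N replicates of either mutant.

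Shoot values were not used to choose the genes. Of the 60 genes, 50 passed the filter on low values in the *sdg33* fit, 3 of them only with WT libraries counted and 1 only with *sdg33* libraries counted, and 51 in the *sdg34* fit, 4 of them only with WT libraries and 2 only with *sdg34* libraries counted. Solyc03g119660.2, which passed only with mutant libraries counted in both fits, was called higher in both mutants. Solyc06g067980.3 and Solyc06g083470.3, which passed only with WT libraries counted in both fits, were called lower in both. In *sdg33* shoots 35 of the 60 were lower than WT and 3 higher, beside 27.0% and 31.1% of all genes tested. In *sdg34* shoots 36 were lower and 4 higher, beside 24.9% and 27.9%. At -N alone, 30 were lower and 3 higher in *sdg33*, beside 22.5% and 25.9%, and 32 were lower and 4 higher in *sdg34*, beside 21.5% and 23.0%. At +N alone, 28 were lower and 2 higher in *sdg33*, beside 18.3% and 20.8%, and 32 were lower and 2 higher in *sdg34*, beside 16.2% and 17.9%. Lower in both mutants were 34, beside 21.7% of all genes tested, and higher in both were 3, beside 23.9%. The median log2 fold change of the tested members was -1.22 in *sdg33* and -1.26 in *sdg34*, where it was 0.04 and 0.03 over all genes tested. These counts and medians include the genes that passed only with WT or only with mutant libraries counted. With at least 10 in every library, 29 genes were lower in *sdg33* and 32 in *sdg34*. All 6 WT shoot libraries were above all 12 mutant shoot libraries in 13 genes, beside 8.54% of all genes tested, and below them in 1, beside 7.9%.

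In shoots, 9 genes did not pass the filter in any fit. Solyc03g093290.2 was listed at 0 in all 18 shoot libraries and had 0 to 18 in the mutant roots and 35 to 53 in the WT roots. Solyc06g074995.1, next to the nitrate transporter gene, had at most 3 in shoots, against 470 to 782 in WT roots. Across WT libraries of the 2 organs, 28 of the 60 genes were higher in every root library, 6 were higher in every shoot library and 26 overlapped, which is a description because the genes were chosen for their root values.

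The most negative shoot difference was in the glycosyltransferase gene Solyc04g016200.1, of a family that joins sugars to small molecules. It had 212, 174 and 138 in +N *sdg33* shoots, 116, 144 and 144 in +N *sdg34* shoots and 3095, 2496 and 2659 in +N WT shoots. At -N it had 342, 268 and 439 in *sdg33* shoots, 310, 260 and 276 in *sdg34* shoots, against 4780, 5112 and 3962 in WT shoots. The groups were far apart at both N supplies, with log2 fold changes of -3.86 (adjusted p = 2.16e-11, SE 0.13) in *sdg33* and -4.18 (adjusted p = 4.85e-13, SE 0.10) in *sdg34*. This gene was higher in WT shoots than in WT roots, where its root log2 fold changes were -3.11 and -2.52. Solyc06g068620.3, described as a negative regulator of sporulation MDS3, had 66 to 388 in *sdg33* shoots, 78 to 322 in *sdg34* shoots and 1128 to 2029 in WT shoots, with -2.92 (adjusted p = 2.43e-08, SE 0.20) and -2.99 (adjusted p = 7.64e-09, SE 0.19). Solyc06g024200.1, described as a BSD domain protein, had 7 to 48 in *sdg33* shoots, 18 to 100 in *sdg34* shoots and 78 to 1242 in WT shoots, so that *sdg34* and WT overlapped, and its log2 fold changes were -3.14 (adjusted p = 0.000526, SE 0.61) and -2.36 (adjusted p = 0.00273, SE 0.57).

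The transcription factor genes were lower in the shoots of both mutants. Solyc12g006120.2, a subunit of the nuclear factor Y complex that binds promoters, had 227 to 340 in *sdg33* shoots, 121 to 196 in *sdg34* shoots and 832 to 1160 in WT shoots. None of these ranges overlapped, and the log2 fold changes were -1.72 (adjusted p = 7.02e-09, SE 0.11) in *sdg33* and -2.59 (adjusted p = 3.71e-11, SE 0.10) in *sdg34*. The NAC gene Solyc08g077110.3 had 30 to 57 in *sdg33* shoots, 45 to 77 in *sdg34* shoots and 118 to 262 in WT shoots, with -2.08 (adjusted p = 8.10e-08) and -1.43 (adjusted p = 3.51e-06). The EIN3-like 3 gene had 99, 214 and 172 in +N *sdg33* shoots, 74, 52 and 61 in +N *sdg34* shoots and 340, 334 and 438 in +N WT shoots, and at -N 20 to 27 in *sdg33* shoots, 13 to 43 in *sdg34* shoots and 34 to 88 in WT shoots. Its log2 fold changes were -1.30 (adjusted p = 0.000491, SE 0.25) and -1.91 (adjusted p = 6.02e-05, SE 0.29).

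The chromosome 5 pair went the other way in shoots. Solyc05g052670.1, described as an HXXXD-type acyltransferase, an enzyme family that transfers acyl groups from CoA thioesters, had 614, 484 and 254 in +N *sdg33* shoots, 162, 283 and 396 in +N *sdg34* shoots and 26, 21 and 42 in +N WT shoots. At -N it had 266, 297 and 162 in *sdg33* shoots, 392, 429 and 446 in *sdg34* shoots, against 37, 25 and 87 in WT shoots. All mutant shoot libraries were above all WT shoot libraries, with log2 fold changes of 3.13 (adjusted p = 9.59e-07, SE 0.31) in *sdg33* and 3.21 (adjusted p = 3.17e-07, SE 0.29) in *sdg34*. In roots the same gene had 11 to 31 in *sdg33*, 11 to 45 in *sdg34* and 112 to 308 in WT. Solyc05g052660.1, without a description, had 12 to 69 in *sdg33* shoots, 16 to 45 in *sdg34* shoots and 4 to 16 in WT shoots, with 1.48 (adjusted p = 0.00693, SE 0.41) and 1.50 (adjusted p = 0.00221, SE 0.35).

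The genes on either side of this pair are named because they were lower in both mutants in roots, so only their shoot values are free of that choice. Solyc05g052680.1 had 98 to 189 in *sdg33* shoots, 43 to 268 in *sdg34* shoots and 10 to 51 in WT shoots, with 2.51 (adjusted p = 7.06e-06, SE 0.30) and 2.19 (adjusted p = 3.00e-05, SE 0.30). Solyc05g052650.2 had 13 to 80 in *sdg33* shoots, 14 to 47 in *sdg34* shoots and 6 to 17 in WT shoots, with 1.64 (adjusted p = 0.0028, SE 0.40) and 1.32 (adjusted p = 0.00547, SE 0.35). All 4 adjacent genes were higher in the shoots of both mutants than in WT. The third gene higher in both mutants in shoots, Solyc03g119660.2, had 8 to 41 in *sdg33* shoots, 12 to 40 in *sdg34* shoots and 0 to 16 in WT shoots. The nitrate transporter neighbour Solyc06g074990.2 had 6 to 88 in *sdg33* shoots, 10 to 28 in *sdg34* shoots and 3 to 14 in WT shoots. Both genes passed the filter only with mutant libraries counted, so their log2 fold changes are given as values. They were 2.07 in *sdg33* and 2.00 in *sdg34* for Solyc03g119660.2, and 2.09 and 1.52 for Solyc06g074990.2.

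**Figure D5:**
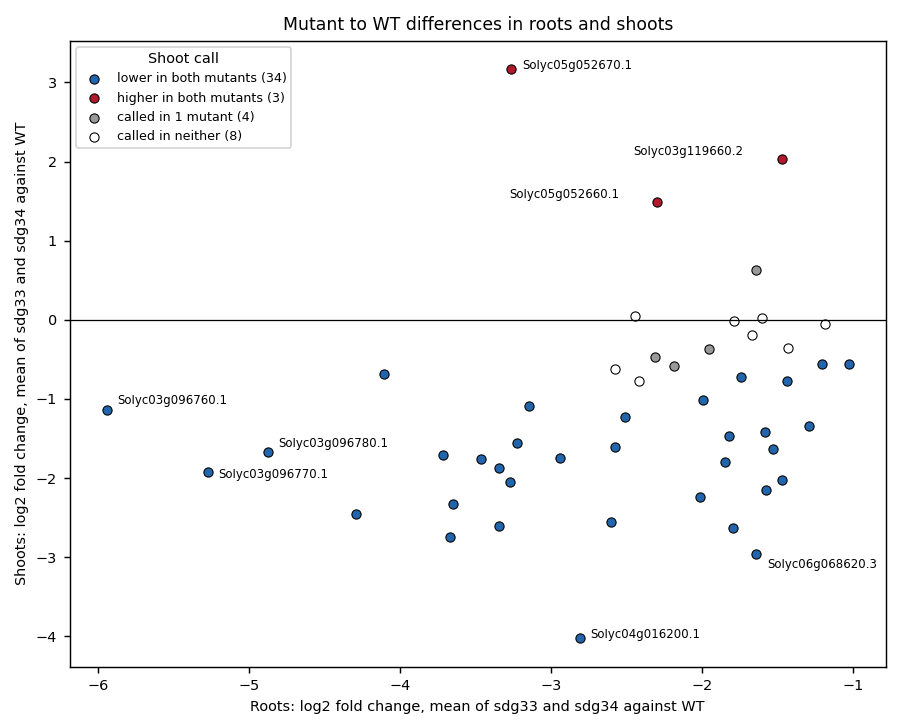
Mean log2 fold change of *sdg33* and *sdg34* against WT in roots (horizontal axis) and shoots (vertical axis) for the 49 genes tested in all 4 fits, with the shoot call by colour. Most points lie below 0 on the shoot axis, and 3 genes, Solyc05g052660.1 and Solyc05g052670.1 among them, lie above it in red.

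The 4 sulfur genes of the set were lower in the shoots of both mutants over both N supplies. In *sdg33* the size of the difference depended on N supply, and not all were called at +N. Some sulfate assimilation genes outside the set, given further below, were higher in mutant shoots. Solyc03g096770.1 had 1894, 2900 and 1582 in +N *sdg33* shoots, 552, 816 and 836 in +N *sdg34* shoots and 3112, 2595 and 3154 in +N WT shoots. At -N it had 63, 72 and 65 in *sdg33* shoots, 157, 143 and 98 in *sdg34* shoots, against 576, 316 and 975 in WT shoots. In *sdg33* 1 of the 3 +N libraries reached the range of WT, with a log2 fold change of -0.52 (95% interval -1.17 to 0.14, adjusted p = 0.2), while at -N all were below WT, with a log2 fold change of -3.06 (adjusted p = 2.20e-06, SE 0.31). In *sdg34* the difference was -2.03 at +N and -2.10 at -N. Solyc03g096760.1 in *sdg33* shoots was at 0.73 (95% interval 0.025 to 1.43, adjusted p = 0.0934) at +N and -2.09 (adjusted p = 0.000134) at -N. Over both N supplies it was lower in *sdg33* shoots by -0.68 (adjusted p = 0.0213), a call lost without -N *sdg33* replicate 3, -N WT replicate 1 or +N *sdg33* replicate 1.

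The 3 APS reductase genes had log2 fold changes further below 0 at -N than at +N in both mutants. Solyc02g080640.3 had 11890, 15713 and 12094 in +N *sdg33* shoots, 7418, 7514 and 8836 in +N *sdg34* shoots and 20008, 14439 and 19084 in +N WT shoots. At -N it had 1236, 1264 and 922 in *sdg33* shoots, 1595, 1532 and 1388 in *sdg34* shoots, against 9706, 6620 and 8230 in WT shoots. Its log2 fold change in *sdg33* was -0.43 (adjusted p = 0.0683, SE 0.18) at +N and -2.84 (adjusted p = 1.97e-08, SE 0.18) at -N, and in *sdg34* -1.16 (adjusted p = 3.83e-05) and -2.43 (adjusted p = 1.40e-08). Solyc02g032860.3 had 1963, 2732 and 2141 in +N *sdg33* shoots, 1373, 1248 and 1508 in +N *sdg34* shoots and 5782, 4174 and 5120 in +N WT shoots, against 226 to 292, 400 to 458 and 2101 to 3693 in the same genotypes at -N. Over both N supplies the log2 fold changes of Solyc02g032860.3, Solyc02g080640.3 and Solyc03g031620.3 were -2.34, -1.63 and -2.53 in *sdg33* shoots and -2.33, -1.79 and -2.69 in *sdg34* shoots.

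Tested as an interaction (the +N minus -N difference of the mutant less that of WT), the N response in shoots was more positive in *sdg33* than in WT for 8 genes, beside 0.632% of all genes tested, and more negative for 0 genes in limma's test, beside 1.36%, with 12 more positive and 6 more negative at an unadjusted p under 0.05. The 8 were the 3 genes of the chromosome 3 run, with log2 differences of 2.82 (adjusted p = 0.0079), 2.54 (adjusted p = 0.00944) and 1.82 (adjusted p = 0.0323) for Solyc03g096760.1, Solyc03g096770.1 and Solyc03g096780.1, the 3 APS reductase genes, with 2.40 (adjusted p = 0.000631), 2.41 (adjusted p = 0.000266) and 1.78 (adjusted p = 0.00256) for Solyc02g032860.3, Solyc02g080640.3 and Solyc03g031620.3, and the tonoplast intrinsic protein gene Solyc06g075650.3 and Solyc10g086530.1. All 6 genes of the first groups were higher at +N in WT shoots as well. The call for Solyc03g096780.1 was lost without any 1 of the 3 -N *sdg33*, the 3 +N WT or the +N *sdg33* replicates 2 and 3, and the count of more negative responses was 1 to 3 without any 1 of the -N WT replicates or without +N *sdg33* replicate 1.

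In *sdg34* shoots the response was more positive than in WT for 4 genes, beside 1.8% of all genes tested, and more negative for 2, beside 2.83%. The positive differences were those of Solyc02g080640.3 with 1.27 (adjusted p = 0.00476), Solyc03g031620.3 with 0.87 (adjusted p = 0.0377, and 0.0503 with no filter on low values), Solyc06g075650.3 with 1.38 (adjusted p = 0.0356) and Solyc03g007760.3 with 1.32 (adjusted p = 0.0232), and the negative ones those of Solyc01g091670.3 with -1.71 and Solyc04g007500.1 with -1.51. These counts rested on single libraries, since leaving out any 1 of the 6 *sdg34* libraries or of the +N WT replicates 1 and 3 gave 1 or 2 positive differences, and leaving out any 1 of 8 of the 12 libraries gave 0 or 1 negative ones. Whether *sdg33* and *sdg34* differ in their interactions was not tested.

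The other genes of these groups had patterns of their own. The tonoplast intrinsic protein gene Solyc06g075650.3 had 90, 104 and 68 in +N and 65, 96 and 100 in -N *sdg33* shoots, 55, 81 and 78 in +N and 100, 104 and 110 in -N *sdg34* shoots, and 146, 278 and 222 in +N and 690, 716 and 1059 in -N WT shoots. It was lower at +N in WT shoots by -1.95 (adjusted p = 9.48e-06, SE 0.25) and had 0.01 (adjusted p = 0.985) in *sdg33* and -0.57 (adjusted p = 0.12) in *sdg34*. Solyc10g086530.1, without a description, had 59, 62 and 105 in +N and 3, 12 and 7 in -N *sdg33* shoots, and 72 to 98 in +N and 60 to 110 in -N WT shoots, an interaction of 3.16 (adjusted p = 0.016, SE 0.59). Both were named after their values were seen.

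In WT shoots, 13 of the 51 genes tested were higher at +N and 8 lower, beside 15.0% and 15.4% of all genes tested. Of the 15 genes higher at +N in WT roots, 9 were also higher in WT shoots, beside 39.7% of all genes higher in WT roots. Of the 4 lower in roots 2 were lower in shoots, beside 32.8% of all such genes, the NAC gene Solyc08g077110.3 with -0.77 (adjusted p = 0.0142, lost without +N or -N WT replicate 1) and Solyc03g093800.1 with -0.90 (adjusted p = 0.00826). The largest shoot responses among the 9 were 2.52 in both Solyc05g052300.3 (adjusted p = 9.49e-07) and the EIN3-like 3 gene (adjusted p = 7.39e-05).

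Between the mutants in shoots, 4 of 49 genes tested were higher and 3 lower in *sdg34* than in *sdg33*, beside 7.79% and 8.23% of all genes tested. Higher were Solyc03g007760.3 by 0.82 (adjusted p = 0.00809), Solyc08g077110.3 by 0.65 (adjusted p = 0.0189), Solyc06g005435.1 by 0.87 and Solyc06g059800.3 by 0.31. Lower were Solyc12g006120.2 by a log2 difference of -0.87 (adjusted p = 0.000339), Solyc03g096760.1 by -0.92 (adjusted p = 0.00949) and Solyc01g095140.3 by -1.23 (adjusted p = 0.0253). Without +N *sdg33* replicate 3 the lower count was 5.

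The pathway list of sulfate assimilation, made of every gene that the study's lists describe by low sulfur, APS reductase, APS kinase or sulfate transporter, held 8 genes, and 4 of them were in the set. Because the study listed these genes for differences in the same libraries, the list is not independent evidence of a direction. Of the other 4, the low sulfur gene Solyc06g072990.1 had 0 to 5 in the mutant roots and 4 to 21 in the WT roots, and it passed the filter there only through +N WT libraries, so that its log2 fold changes of -2.16 in *sdg33* and -1.90 in *sdg34* are given as values. The sulfate transporter gene Solyc12g056920.2 was not called in roots, with 0.09 (adjusted p = 0.315 in limma) and 0.13 (adjusted p = 0.252). In shoots it had 63 to 94 in *sdg33*, 41 to 76 in *sdg34* and 1 to 4 in WT. It passed the filter there only through the mutant libraries, so its log2 fold changes of 4.44 in *sdg33* and 4.13 in *sdg34* are given as values. The sulfate transporter gene Solyc09g082550.3 was not called in roots and was lower in shoots, by -2.14 and -1.72. The APS kinase gene Solyc09g075840.3, whose product competes for the same APS, did not pass the filter in the root fits or in the *sdg34* shoot fit. It had 3 to 26 in *sdg33* shoots, 2 to 17 in *sdg34* shoots and 0 to 3 in WT shoots, and passed in the *sdg33* shoot fit only through the *sdg33* libraries, with a log2 fold change of 2.77.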

How the data were processed

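RNA-seq libraries of tomato roots and shoots were analysed, 36 in all. The authors aligned trimmed reads with BBmap, counted them with featureCounts on ITAG3.2 gene models and miRBase loci, with DESeq2 as their test. What they deposited is a normalized score, not counts: the authors applied full-quantile normalization to the gene counts and rounded them, so all 36 libraries hold the same sorted values, and count models were not used here. Depth per library is unknown, and p-values measure the spread between pooled-plant libraries.

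Values were analysed as log2(value + 1), and fold changes are on that scale, which understates changes of low genes. Features with at least 10 in at least 3 libraries of a fit were fitted with limma 3.58.1 in R 4.3.3 (lmFit, eBayes with trend), with Benjamini-Hochberg adjustment over all of them and a threshold of 0.05. Mutants were compared with WT as the mean over +N and -N in the 12 libraries of 1 mutant and WT, and N responses in the 18 libraries of an organ. The scripts were tested on simulated data with normal noise and a planted log2 change of 2, in which 80.5% to 98.5% of changed genes were found. Smaller changes and interactions were not simulated, so these shares do not apply to them. The 60 genes, the lists and the tests were chosen with earlier results of these data known. Named were the 10 widest gaps, genes in runs, the 3 extremes of each N and shoot comparison, the ranks at the edge of the set, described genes of the keyword lists and neighbours lower in both mutants. The genes stated as named after their values were seen, and the genes given for an interaction or a mutant comparison, were added later. Alternatives were other filters, pseudocounts, scaling, the replicate number as a block and each library left out in turn.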

Additional observations from a re-analysis of the deposited data

Results flagged for a closer look

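The genes below were listed because the N response of a mutant differed from that of WT in limma's interaction test (adjusted p under 0.05). Values are log2 differences, mutant N response less WT N response. In *sdg33* shoots they were 2.54 for Solyc03g096770.1, 2.82 for Solyc03g096760.1, 1.82 for Solyc03g096780.1, 2.40 for Solyc02g032860.3, 2.41 for Solyc02g080640.3, 1.78 for Solyc03g031620.3, 1.96 for Solyc06g075650.3 and 3.16 for Solyc10g086530.1. In *sdg34* shoots they were 1.38 for Solyc06g075650.3, 0.87 for Solyc03g031620.3, 1.27 for Solyc02g080640.3, 1.32 for Solyc03g007760.3, -1.71 for Solyc01g091670.3 and -1.51 for Solyc04g007500.1. The call for Solyc06g075650.3 in *sdg33* was lost without -N *sdg33* replicate 1, +N *sdg33* replicate 2 or +N WT replicate 1. The calls for Solyc03g096780.1 in *sdg33* and for Solyc03g007760.3, Solyc03g031620.3 and Solyc06g075650.3 in *sdg34* were each lost without any 1 of 5 or more libraries.

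Among the named genes, the differences in *sdg33* roots were -1.70 for Solyc03g096770.1, -1.11 for Solyc03g114710.3, -2.05 for Solyc04g016200.1, -0.74 for Solyc10g086530.1, -1.36 for Solyc12g099000.2 and -1.67 for Solyc01g006650.2. In *sdg34* roots they were -1.82 for Solyc03g096770.1, -1.44 for Solyc03g096780.1, -1.60 for Solyc03g114710.3, -1.85 for Solyc04g016200.1, -0.85 for Solyc12g006120.2, -2.63 for Solyc12g096310.2, -0.68 for Solyc10g086530.1, -1.26 for Solyc12g099000.2, -1.01 for Solyc03g007760.3, -1.35 for Solyc01g006650.2 and 1.66 for Solyc05g052670.1. In *sdg33* roots the calls for Solyc04g016200.1 and Solyc10g086530.1 were lost without any 1 of 4 libraries each. In *sdg34* roots that for Solyc05g052670.1 was lost with no filter on low values (adjusted p = 0.0578 in limma) and without any 1 of 7 libraries, those for Solyc04g016200.1 and Solyc12g006120.2 without any 1 of 4, that for Solyc10g086530.1 without any 1 of 3 and that for Solyc03g096780.1 without any 1 of 2. Solyc03g096770.1 thus had a negative difference in roots of both mutants and a positive one in *sdg33* shoots. Whether the organs differ in it was not tested. The root interactions come from the libraries that chose the genes and are a description.

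Solyc05g052670.1 was listed because all mutant libraries lay below WT in roots and above WT in shoots, with a mean shoot log2 fold change of 3.17. The root direction was fixed by the choice of the genes, and the difference between organs was not tested.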

How the results depend on the processing

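No called value of a named gene changed sign in any alternative. Of the alternative values for named genes, 2368 stayed on their side of the threshold and 110 lost the call. The counts of the 60 genes that moved by over 1.5 times are given here, and the cause was not tested except where fewer genes pass a stricter filter or threshold by construction. With at least 10 in every library, the WT root N response had 9 higher genes, shoots had 1 higher gene in *sdg33* and 1 in *sdg34*, the *sdg33* interaction was negative for 2 genes in shoots and positive for 0 in roots, and 1 gene was higher in *sdg34* than in *sdg33* roots. With an absolute log2 fold change of at least 1, 0 genes were lower at +N in WT roots. With at least 2, 11 genes were lower in *sdg33* shoots, and 13 were lower and 1 was higher in *sdg34* shoots. At +N only, 2 genes were higher in *sdg34* shoots. The negative *sdg33* shoot interactions numbered 2 with a pseudocount of 10 and 2 after rescaling by median of ratios. Without a filter, positive *sdg34* interactions numbered 2 in shoots and 0 in roots. With a pseudocount of 0.1 or 10, 0 positive *sdg33* root interactions were left. Taking 30 genes by the rule gave 30, and of the 60 genes 54 were taken with a pseudocount of 10 and 59 with 0.1.

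With each library left out in turn, the WT root N response was higher for 13 to 16 genes and lower for 1 to 5, and the WT shoot N response higher for 12 to 15 and lower for 6 to 8. In shoots, 3 to 4 genes were higher and 32 to 35 lower in *sdg33*, and 3 to 4 higher and 35 to 38 lower in *sdg34*. Shoot interactions were positive for 6 to 9 and negative for 0 to 3 genes in *sdg33*, and positive for 1 to 5 and negative for 0 to 3 in *sdg34*. Root interactions were positive for 0 to 2 and negative for 7 to 10 in *sdg33*, and positive for 0 to 2 and negative for 12 to 18 in *sdg34*. The root interaction was added after the values were seen, in the same libraries that chose the genes. Its positive count in *sdg33* was 2 without -N WT replicate 2 or +N *sdg33* replicate 1 and 0 without +N *sdg33* replicate 3. Between the mutants, 0 to 3 genes were higher and 0 to 0 lower in *sdg34* roots, and 3 to 4 higher and 2 to 5 lower in *sdg34* shoots. The rule took 51 to 60 of the 60 genes.

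The replicate numbers did not pair the libraries: in 0 of 30 pairs of groups were all 3 correlations of same-numbered deviations over 0.1 (range -0.141 to 0.257), and in 3 pairs of groups each library correlated best with its own number. With the replicate block, 1 *sdg33* and 1 *sdg34* shoot interaction was negative, the positive *sdg34* shoot interaction of Solyc03g031620.3 lost its call (adjusted p = 0.0585 in limma), and no other count of calls moved by over 1.5 times. Depth is unknown, so low values carry an unknown counting error, and low mutant root values limit the precision of the fold changes given.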
